A study of Mus musculus with 12 samples.

Results

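The miRNAs described here are the 6 mature members of the miR-99/100 and miR-125 families mmu-miR-99a-5p, mmu-miR-99b-5p, mmu-miR-100-5p, mmu-miR-125a-5p, mmu-miR-125b-5p, and mmu-miR-125a-3p (written without the mouse prefix from here on), chosen by name among the 1881 mouse miRNAs of the array and all found there. They were measured in microglial exosomes, the small vesicles that microglia release, on 12 single-color Agilent miRNA arrays with 3 arrays per group. All mice were adult male C57BL/6, with no transgene or deletion named. The injury groups received repetitive mild traumatic brain injury (rmTBI), given as 4 closed-head impacts 48 h apart under isoflurane, and were sampled at 3, 14, and 42 days post-injury (DPI). Sham mice went through the same handling without the impact, and their labels give no day of collection. The exosomes were precipitated from papain-digested brain tissue and pulled down with an antibody to CD11b, a surface protein of microglia and other myeloid cells. The labels do not say whether an array stands for 1 animal or for pooled animals, so a p-value here measures the spread between arrays, which may be technical. In RNA of a whole vesicle preparation, fewer vesicles of a kind and less of a miRNA per vesicle cannot be told apart.

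A miRNA is loaded onto an Argonaute protein and represses mRNAs that pair with it, chiefly through its seed, bases 2 to 8 from the 5′ end. The miR-99/100 and miR-125 families are encoded beside let-7 in clusters that are conserved across animals, an arrangement in which 1 primary transcript can give a miR-99/100, a let-7, and a miR-125. The miR-99/100 family is known for restraining mTOR signaling, and the 5p arms of miR-125, abundant in brain, are known for repressing Lin28, the RNA-binding protein that blocks let-7 maturation.

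The sequences below are the mature forms from RefSeq on the build GRCm38.p6, in which all 6 names matched. They are shown because the members fall into 3 seed groups and because some are nearly identical, which bears on how well a probe can separate them. Capitals mark the seed.
miR-99a-5p: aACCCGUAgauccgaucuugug
miR-100-5p: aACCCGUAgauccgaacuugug
miR-99b-5p: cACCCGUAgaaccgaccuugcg
miR-125b-5p: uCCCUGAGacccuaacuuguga
miR-125a-5p: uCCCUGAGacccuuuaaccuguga
miR-125a-3p: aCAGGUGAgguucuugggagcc

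The first 3 share 1 seed. miR-100-5p and miR-99a-5p differ only by A16U, counted from the 5′ end of miR-100-5p, while miR-99b-5p differs from miR-99a-5p at 4 positions (A1C, U11A, U16C, and U21C). miR-125a-5p and miR-125b-5p share their first 13 bases, and they are 24 and 22 bases long. miR-125a-3p is cut from the other arm of the hairpin of miR-125a-5p and has a seed of its own. Their probes can share target molecules, and cross-hybridization was not tested. Of the other miRNAs with the seed of the miR-125 5p arms, miR-351-5p and miR-6367 were detected on 0 of 12 arrays, and miR-6394 was detected on 8, with a log2 change of -0.38 at 42 DPI against sham (adjusted p = 0.571 by limma). The mean of miR-6394 at 42 DPI was -5.06, the lowest level that the processing allows, so the size of this change is limited there.

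The members lie on the plus strand in 3 clusters. On chromosome 9, Mir100 (chr9:41531425-41531504), Mirlet7a-2, and Mir125b-1 (chr9:41581926-41582002) span 50578 bases inside the long noncoding RNA gene Mir100hg. On chromosome 16, Mir99a (chr16:77598936-77599000), Mirlet7c-1, and Mir125b-2 (chr16:77646273-77646343) span 47408 bases. On chromosome 17, Mir99b (chr17:17830188-17830257), Mirlet7e, and Mir125a (chr17:17830812-17830879) lie within 692 bases inside the span of the protein-coding gene Spaca6. miR-125b-5p therefore has 2 source loci, which the array cannot separate, and the other members have 1 each.

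Levels are given as log2 of a scaled signal, for which the 230 miRNAs found on every one of the 12 arrays served as reference. A level of 0 is a signal equal to the 75th percentile of that reference on the same array, and levels of different miRNAs are not compared because probes differ in brightness. A miRNA was called detected on an array where any of its probes had more than 0.5 of its spots well above background, and called changed at an adjusted p under 0.05 in a limma fit over the 486 miRNAs tested. Before scaling, the percentile ran from 217 to 348 on sham arrays and from 1385 to 2936 at 42 DPI, and the mean signal of every member was higher at 42 DPI than in sham before scaling. The sham arrays and replicate 1 of 3 DPI shared slide 1 and the other 8 were on slide 2, so that at 14 and 42 DPI slide and injury cannot be told apart. A fit with slide as a block rests on 3 DPI, the only group on both slides. No spot was saturated. Of the markers of myeloid cells, miR-142a-3p was detected on 5 of 12 arrays, miR-142a-5p on 0, miR-155-5p on 1, miR-146a-5p on 6, miR-223-3p on 10, and miR-21a-5p on 12, while all 6 neuron-enriched and all 3 oligodendrocyte-enriched miRNAs looked up were detected on all 12. In sham and at the 3 times in order, the summed scaled signal of the neuron list was 12.6 to 17.0, 13.2 to 21.4, 12.3 to 25.5, and 20.6 to 25.2, and that of the oligodendrocyte list was 1.8 to 2.51, 2.12 to 3.63, 2.15 to 4.11, and 4.12 to 4.43. The myeloid list ran in the same order from 0.674 to 0.934, 0.62 to 0.971, 0.704 to 1.28, and 1.34 to 1.5. The erythrocyte list ran from 0.0848 to 0.124 in sham and from 0.0443 to 0.0829 at 42 DPI, and the endothelial list from 1.01 to 1.41 and from 1.38 to 1.62. At 42 DPI against sham, limma called 2 of 6 neuron, 2 of 3 oligodendrocyte, and 3 of 4 tested myeloid miRNAs higher, 1 of 1 tested erythrocyte miRNAs lower, and 0 of 2 endothelial miRNAs. Over all tested, 13.6% were called higher and 20.6% lower. Of those called, miR-142a-3p, miR-146a-5p, and miR-486a-5p were detected on 0 of 3 sham arrays and on all 3 only at 42 DPI. They entered the test through that group. In sham, miR-142a-3p (-4.91) and miR-146a-5p (-5.04) lay near the floor of -5.06, as did miR-486a-5p at 42 DPI (-5.06). Of the 2 endothelial miRNAs, miR-126a-5p stood at the floor on all 12 arrays, so it could not be called. It too was detected on all 3 arrays of a group only at 42 DPI. The part of these cell types in the members' values was not tested.

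Across the 3 time points, members passed the test against sham only at 42 DPI, where miR-125a-5p was lower and miR-125b-5p was higher. Limma called 2 of the 6 members at 42 DPI, against 34.2% of all miRNAs tested (13.6% higher and 20.6% lower), so the families were called about as often as the rest. At 14 DPI it called 0 of 6, with 3.7% over all tested, and at 3 DPI 0 of 6, with 0% over all tested. At an unadjusted p under 0.05 the members called were 0, 2, and 4 at 3, 14, and 42 DPI, with 2.26%, 21.8%, and 47.5% over all tested. The median log2 change of the 6 members was 0.0052, 0.39, and 0.36 at the 3 times, beside medians of 0, 0, and -0.09 over all tested. Every member passed the filter for testing, and none lay at the floor on any array.

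**Figure D1:**
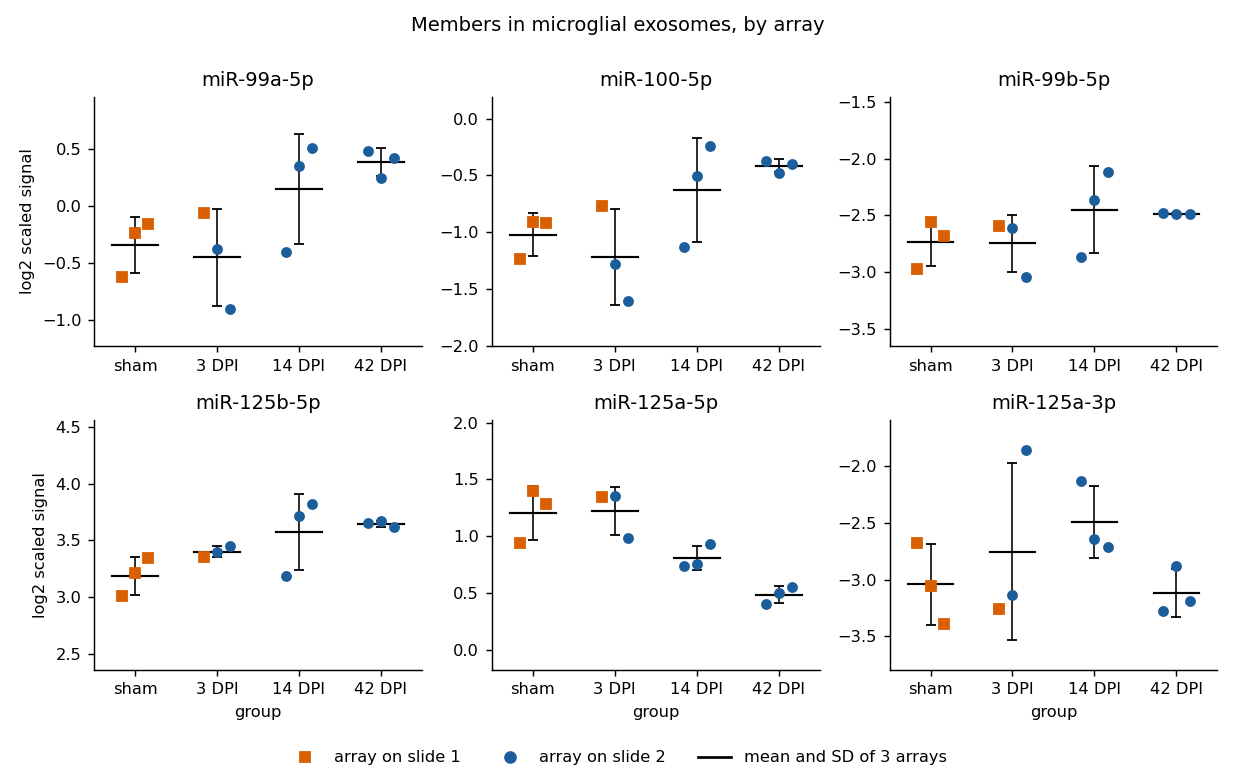
Log2 scaled signal (y axis) of each member on each array, by group (x axis), with squares for slide 1, circles for slide 2, and lines for the mean and SD of 3 arrays. Each panel spans the same log2 range. miR-125a-5p at 42 DPI lies between 0.4 and 0.55, under all sham arrays, and miR-125b-5p lies between 3.62 and 3.67, over all of them. Of all tested miRNAs, 35.6% lay under sham in this way at 42 DPI and 31.3% over it.

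miR-125a-5p was the member with the clearest difference. Its level was 0.94, 1.40, and 1.28 in sham and 1.34, 1.35, and 0.98 at 3 DPI. It was 0.74, 0.75, and 0.93 at 14 DPI and 0.40, 0.50, and 0.55 at 42 DPI. The arrays of 14 DPI lay just under the lowest sham array, and those of 42 DPI lay under all arrays of the other groups. Of all tested miRNAs, 9.26% lay below sham in this way at 14 DPI, and at 42 DPI 37.7% lay below 3 DPI and 25.7% below 14 DPI. Against sham its log2 change at 3 DPI was 0.02 (SE 0.14, adjusted p = 1 by limma). The change at 14 DPI was -0.40 (adjusted p = 0.138), and that at 42 DPI was -0.73 (95% CI -1.04 to -0.42, adjusted p = 0.00996), or a level of 0.605 times sham. Groups that did not overlap, with all arrays of 42 DPI below sham, were the case for 35.6% of all tested, and 33.1% of them had a lower change than miR-125a-5p. Before scaling, its summed intensity was higher at 42 DPI (1960 to 3870) than in sham (547 to 847), so the fall is relative to the rest of the array. The change at 42 DPI turned to 0.05 with the percentile taken over all miRNAs and to 2.09 with no scaling. Without any 1 array of either group the call held. With slide as a block the change was -0.55 (adjusted p = 0.244). With the scanner software's total signal it was -0.47 (adjusted p = 0.0733) and in the deposited values -0.56 (adjusted p = 0.0715).

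The probes of miR-125a-5p did not move alike. The brighter of its 2 probes carried 84.6% of the summed signal and stood at 0.76, 1.21, and 1.11 in sham and at 0.1, 0.22, and 0.27 at 42 DPI, a mean change of -0.83. The dimmer probe stood at -2.10, -1.69, and -1.82 in sham and at -2.02, -1.99, and -1.96 at 42 DPI, a mean change of -0.12. The dimmer probe's arrays of 42 DPI thus fell within the sham range, and the call of miR-125a-5p rests on the brighter probe.

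miR-125b-5p, which shares the seed of miR-125a-5p, moved the other way. Its level was 3.01, 3.21, and 3.34 in sham and 3.35, 3.40, and 3.45 at 3 DPI. It was 3.19, 3.71, and 3.82 at 14 DPI and 3.65, 3.67, and 3.62 at 42 DPI. All arrays of 3 DPI lay above the sham arrays, the nearest standing at 3.35 and 3.34, and the same position was found for 0.617% of all tested. Against sham the log2 change at 3 DPI was 0.21 (SE 0.15, adjusted p = 1 by limma). The change at 14 DPI was 0.39 (adjusted p = 0.167), and that at 42 DPI was 0.46 (95% CI 0.12 to 0.80, adjusted p = 0.0446), or 1.38 times sham. Its 2 probes changed by 0.43 and 0.73 at 42 DPI, the brighter by 0.43. The call at 42 DPI was narrow. Without replicate 1 or 2 of sham, or without any 1 array of 42 DPI, the adjusted p lay between 0.0941 and 0.16, and without sham replicate 3 it held. Quantile normalization gave 0.18 (adjusted p = 0.289), the deposited values 0.30 (adjusted p = 0.298), and slide as a block 0.39 (adjusted p = 0.383). At 14 DPI, replicate 1 stood below the other arrays of its group for this member, and without it the change was 0.58 (adjusted p = 0.00679), in a fit that called 162 of 486 miRNAs.

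**Figure D2:**
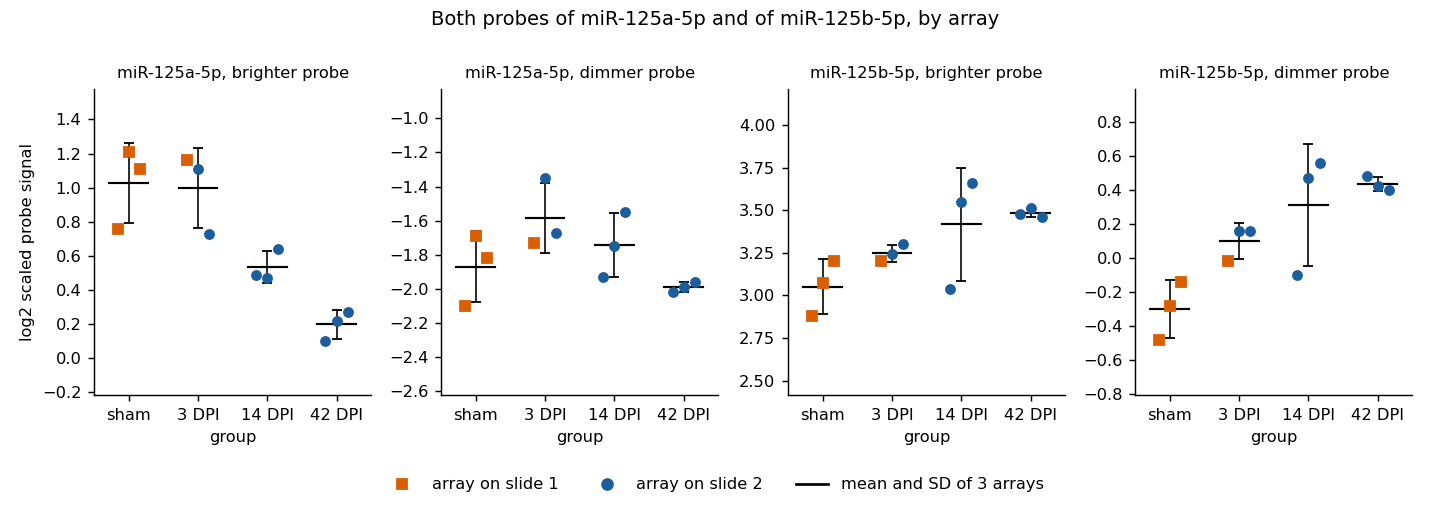
Log2 scaled signal (y axis) of each of the 2 probes of miR-125a-5p and of miR-125b-5p on each array, by group (x axis), with squares for slide 1, circles for slide 2, and lines for the mean and SD of 3 arrays. The brighter probe of miR-125a-5p changed by -0.83 from sham to 42 DPI and the dimmer by -0.12, whereas those of miR-125b-5p changed by 0.43 and 0.73.

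miR-99a-5p and miR-100-5p, which differ by 1 base, kept nearly the same distance on every array. miR-99a-5p stood at -0.62, -0.24, and -0.16 in sham and at -0.06, -0.38, and -0.91 at 3 DPI. It stood at -0.40, 0.35, and 0.51 at 14 DPI and at 0.49, 0.25, and 0.42 at 42 DPI. All arrays of 42 DPI lay above all arrays of sham and 3 DPI, while 14 DPI overlapped both. The 3 times, in order, gave log2 changes of -0.11, 0.49, and 0.73 against sham (adjusted p = 1, 0.348, and 0.0704 by limma). miR-100-5p stood at -1.24, -0.91, and -0.92 in sham and at -0.77, -1.28, and -1.61 at 3 DPI. It stood at -1.13, -0.51, and -0.24 at 14 DPI and at -0.37, -0.48, and -0.40 at 42 DPI. Its groups were ordered in the same way, with changes of -0.19, 0.39, and 0.61 and adjusted p = 1, 0.401, and 0.0921. All arrays of 42 DPI lay above sham for 31.3% of all tested miRNAs and above 3 DPI for 28.6%. Neither change at 42 DPI passed the test in the fit used here. Without replicate 1 of 14 DPI, the change of miR-99a-5p at that time was 0.77 (adjusted p = 0.0447). At 42 DPI its change was 0.85 with the deposited values (adjusted p = 0.0421) and 0.73 when sham and 42 DPI were fitted alone (adjusted p = 0.0166). Those fits called 249 and 262 of all 486 tested. Some other settings called it as well. It was not called with slide as a block (1.31, adjusted p = 0.197), the replicate block (0.73, adjusted p = 0.107), or quantile normalization (0.80, adjusted p = 0.0644).

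miR-99b-5p, the partner of miR-125a-5p on chromosome 17, was dim. It stood at -2.97, -2.56, and -2.68 in sham and at -2.59, -2.61, and -3.04 at 3 DPI. It stood at -2.87, -2.36, and -2.12 at 14 DPI and at -2.48, -2.49, and -2.49 at 42 DPI. The arrays of 42 DPI lay just above the highest sham array, a position held by 31.3% of all tested, and the other groups overlapped sham. The log2 changes at the 3 times were -0.009, 0.29, and 0.25, with adjusted p = 1, 0.436, and 0.354 by limma. Its summed intensity was only 36.4 to 54.5 on the sham arrays, where 56.7% to 80.0% of its spots were well above background. With normexp background correction, which here added an offset of 50 to every spot, the change at 42 DPI was -0.79 (adjusted p = 2.0e-04 by limma). The median change over all tested was -0.81 in that fit, which called 389 of 486 lower. The fall of miR-99b-5p was thus the usual one under normexp, and its direction depended on the processing.

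miR-125a-3p, the other arm of the miR-125a hairpin, was detected on 1 of 3 sham arrays and on all 9 injury arrays. Detection rose for the whole array, with 243 to 285 miRNAs detected on sham arrays and 326 to 579 on injury arrays. It stood at -2.68, -3.06, and -3.39 in sham and at -3.26, -3.14, and -1.86 at 3 DPI. It stood at -2.13, -2.64, and -2.71 at 14 DPI and at -3.28, -2.88, and -3.19 at 42 DPI. Replicate 3 of 3 DPI stood well above the other arrays of its group. The changes against sham were 0.29, 0.55, and -0.07, with adjusted p = 1, 0.412, and 0.936 by limma, and that at 42 DPI depended on the processing. It was called lower with the software's total signal (-0.75, adjusted p = 0.0488) and with normexp (-1.54, adjusted p = 5.9e-05), and called higher with the percentile over all miRNAs (0.70, adjusted p = 0.0203) and with no scaling (2.74, adjusted p = 2.0e-05). It was also positive, without a call, with quantile normalization (0.44) and the deposited values (0.86), and without replicate 1 of sham or of 42 DPI. The median over all tested at 42 DPI was -0.81 with normexp, 0.46 with the percentile over all miRNAs, and 1.9 with no scaling. On the 2 sham arrays without detection, 3.57% and 10.3% of its spots were well above background, so a difference from sham was hard to measure there.

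**Figure D3:**
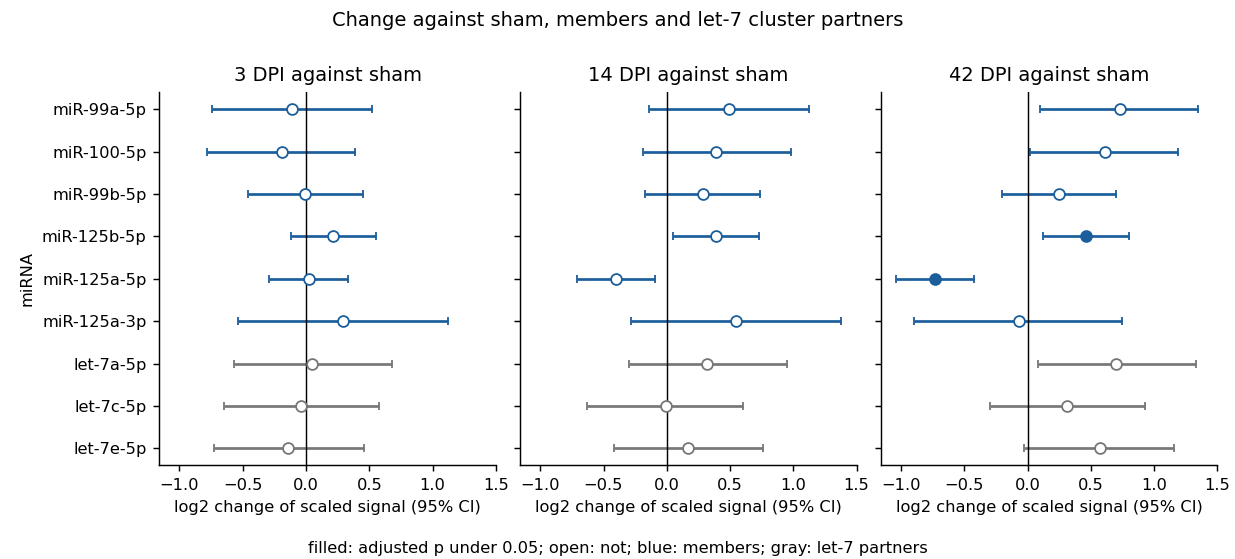
Log2 change of scaled signal (x axis) with its 95% confidence interval from limma for the 6 members (blue) and the let-7 of each cluster (gray), at each time against sham (panels). Filled points passed an adjusted p of 0.05, which were miR-125a-5p at -0.73 and miR-125b-5p at 0.46, both at 42 DPI.

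The comparisons between times used arrays of slide 2, apart from replicate 1 of 3 DPI. From 3 to 42 DPI limma called 3 of 6 members, against 38.3% of all tested (14.2% higher and 24.1% lower). At an unadjusted p under 0.05 it called the same 3, against 50.2%. miR-99a-5p rose by 0.84 (95% CI 0.21 to 1.47, adjusted p = 0.0417) and miR-100-5p by 0.80 (95% CI 0.22 to 1.38, adjusted p = 0.0382). miR-125a-5p was lower by a log2 change of -0.75 (95% CI -1.06 to -0.43, adjusted p = 0.0172), a direction that turned with the percentile over all miRNAs (0.10) and with no scaling (1.28). The changes of miR-125b-5p, miR-99b-5p, and miR-125a-3p were 0.25, 0.26, and -0.36, with adjusted p = 0.205, 0.308, and 0.429. On the arrays of slide 2 alone, a restriction chosen after seeing the data, the changes of the called members were 1.03, 1.03, and -0.69, with adjusted p = 0.0849, 0.0689, and 0.0552, and 0 of all tested were called. Without replicate 1 or 3 of 42 DPI limma called 0 of these members and 0 of all tested, with adjusted p = 0.068 and 0.0611 for miR-125a-5p, and without replicate 2 of 42 DPI or replicate 2 or 3 of 3 DPI it called miR-125a-5p alone. From 3 to 14 DPI limma called 0 of 6 members, with 0.617% over all tested, and from 14 to 42 DPI 0 of 6, with 0% over all tested. At an unadjusted p under 0.05 these were 2 and 1 members, with 20.2% and 11.1% over all tested. Without replicate 1 of 14 DPI, which stood low for the miR-99/100 members and miR-125b-5p, limma called miR-99a-5p (0.88, adjusted p = 0.0387), miR-100-5p (0.84, adjusted p = 0.0363), and miR-125b-5p (0.36, adjusted p = 0.027) higher at 14 than at 3 DPI, and 131 of all 486 tested.

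A difference between 2 members on the same array does not depend on the number by which the array is divided. Its size mixes the brightness of the probes with the miRNAs, so only its change between groups is read. The log2 difference of miR-99b-5p minus miR-125a-5p, whose hairpins lie within 692 bases, was -3.91, -3.96, and -3.96 in sham and -3.93, -3.97, and -4.02 at 3 DPI. It was -3.61, -3.11, and -3.05 at 14 DPI and -2.87, -2.99, and -3.04 at 42 DPI. The arrays of sham and 3 DPI ran from -3.91 to -4.02, and all arrays of 14 and 42 DPI lay above them. Against sham, groups did not overlap in 27.3% of all pairs of miRNAs detected on all 12 arrays at 14 DPI, and in 80.1% at 42 DPI. The mean changed by 0.69 at 14 DPI and by 0.98 at 42 DPI, the latter being a ratio 1.97 times that of sham. The miR-125a-5p part of this rests on its brighter probe, which changed by -0.83 at 42 DPI, against -0.12 for the dimmer. The same holds for its differences with miR-125b-5p and let-7e-5p below. With normexp and its offset of 50, this difference changed by -0.29 at 14 DPI and -0.34 at 42 DPI, in the opposite direction. In the deposited table the change at 42 DPI was 1.27.

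The difference of miR-125a-5p minus miR-125b-5p, members with the same seed and both bright, was -2.07, -1.81, and -2.05 in sham and -2.01, -2.05, and -2.47 at 3 DPI. It was -2.46, -2.96, and -2.89 at 14 DPI and -3.25, -3.17, and -3.07 at 42 DPI. The arrays of 14 and 42 DPI lay below all sham arrays, at times when groups did not overlap in 27.3% and 80.1% of all such pairs. Against sham it changed by -0.20, -0.79, and -1.19 at the 3 times, and the last of these is a ratio 0.439 times that of sham. With normexp it was -1.31 at 42 DPI and with the deposited values -0.85, in the same direction.

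**Figure D4:**
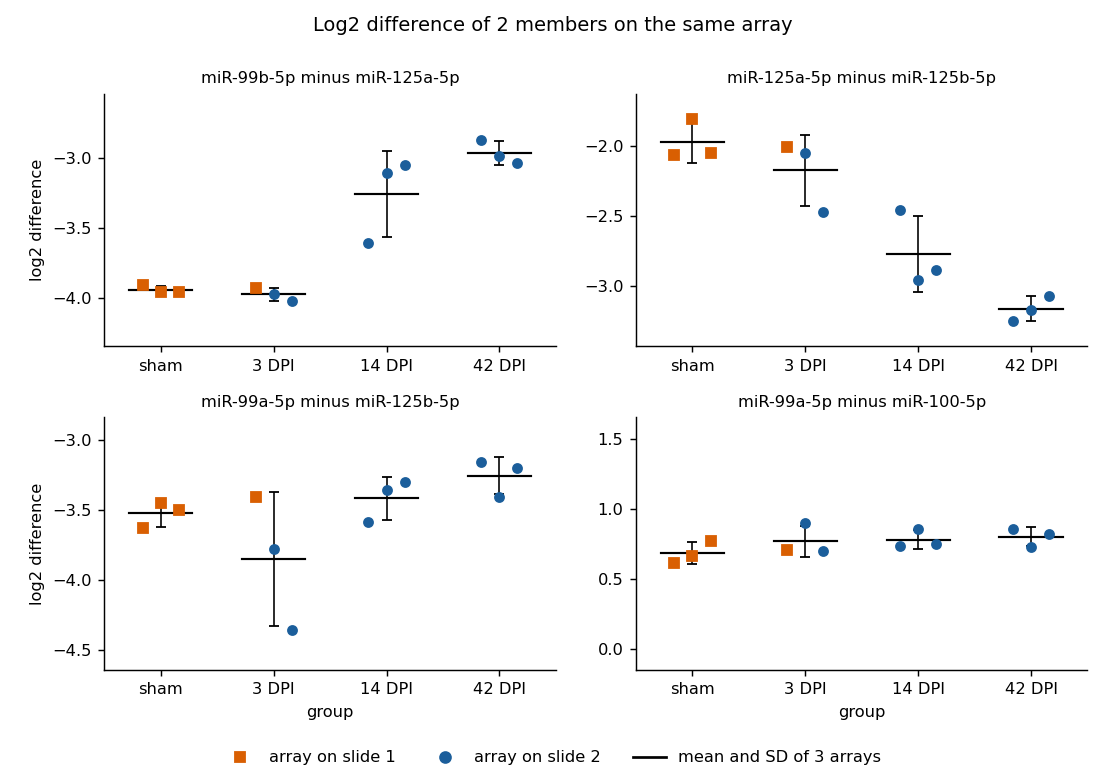
Log2 difference of 2 members on the same array (y axis), by group (x axis), for 4 of the 6 pairs, with squares for slide 1, circles for slide 2, and lines for the mean and SD of 3 arrays. Each panel spans the same log2 range. miR-99b-5p minus miR-125a-5p moved from a mean of -3.94 in sham to -2.97 at 42 DPI, and miR-99a-5p minus miR-100-5p from 0.69 to 0.81.

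Of the other pairs, the 3 with miR-99a-5p or miR-100-5p changed by less at 14 and 42 DPI than both of these. miR-99a-5p minus miR-125b-5p, the ends of the cluster on chromosome 16, changed by -0.33, 0.10, and 0.27 at 3, 14, and 42 DPI, and miR-100-5p minus miR-125b-5p on chromosome 9 changed by -0.41, 0.0067, and 0.15. With normexp the changes of these pairs at 42 DPI were -0.23 and -0.57. miR-99a-5p minus miR-100-5p stayed between 0.62 and 0.90 on all 12 arrays. miR-125a-5p minus miR-125a-3p, the arms of 1 hairpin, ran from 3.62 to 4.67 in sham and from 3.38 to 3.74 at 42 DPI. It changed by -0.27, -0.95, and -0.65 at the 3 times, the change at 14 DPI being wider than those of the pairs above, and its groups overlapped at every time. Over the 18 changes of 6 pairs at 3 times, groups did not overlap in 5, which were 2 of 6 at 14 DPI and 3 of 6 at 42 DPI. Among all pairs of miRNAs detected on all 12 arrays, groups did not overlap in 6.54%, 27.3%, and 80.1% at 3, 14, and 42 DPI. The smallest p that 3 arrays against 3 allow in a two-sided exact permutation test is 0.10, which these 5 reached, and the smallest value adjusted over the 18 was 0.36.

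The let-7 of each cluster was set beside its members. let-7a-5p, let-7c-5p, and let-7e-5p were detected on all 12 arrays, and the first of these is also encoded outside the cluster, as is let-7c-5p. At 42 DPI against sham they changed by 0.70, 0.31, and 0.57, with adjusted p = 0.0742, 0.393, and 0.12 by limma. Of the 4 tested let-7 strands of the clusters 0 were called, against 34.2% of all miRNAs tested. The remaining strand tested, let-7e-3p, stood at the floor of -5.06 on all 12 arrays, so it could not be called. It entered the test only through its detection at 42 DPI. On the chromosome 17 cluster, let-7e-5p and miR-99b-5p thus had positive changes beside the negative one of miR-125a-5p. Within this cluster the difference between miR-125a-5p and let-7e-5p changed more than that between miR-99b-5p and let-7e-5p. miR-125a-5p minus let-7e-5p was -0.88 ± 0.17 (SD, n = 3) in sham, -0.73 ± 0.08 at 3 DPI, -1.45 ± 0.53 at 14 DPI, and -2.17 ± 0.15 at 42 DPI. miR-99b-5p minus let-7e-5p was -4.83 ± 0.16 in sham and -5.14 ± 0.08 at 42 DPI. The gaps in the other clusters, given as values without a test, changed less than that of miR-125a-5p. On chromosome 16, miR-99a-5p minus let-7c-5p was -4.43 ± 0.03 in sham, -4.50 ± 0.17 at 3 DPI, -3.93 ± 0.09 at 14 DPI, and -4.02 ± 0.11 at 42 DPI. On chromosome 9, miR-100-5p minus let-7a-5p was -4.28 ± 0.08 in sham and -4.38 ± 0.04 at 42 DPI. Of the other arms of the members' hairpins, miR-99a-3p, miR-100-3p, miR-125b-1-3p, and miR-125b-2-3p were detected on 0 of 12 arrays, and miR-99b-3p, detected on 5, changed by -0.24 at 42 DPI (adjusted p = 0.686). miR-10a-5p and miR-10b-5p, whose sequences resemble those of miR-99/100 with 1 more U inside the seed, were detected on 0 arrays.

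The miRNAs whose levels ran most like those of a member over the 12 arrays were found by Pearson's r among the 486 tested, as a description in which all points share their array's scaling. For miR-99a-5p these were miR-100-5p (r = 0.986), miR-26b-5p (0.983), and miR-106b-5p (0.980), and for miR-100-5p they were miR-99a-5p, miR-331-3p (0.982), and miR-30a-5p (0.977). For miR-99b-5p they were miR-26a-5p (0.95), miR-411-5p (0.943), and miR-93-5p (0.927). miR-125b-5p ran most like miR-27b-3p (0.929), miR-541-5p (0.928), and miR-137-3p (0.918), while miR-125a-5p ran most like miR-433-3p (0.957), miR-3099-3p (0.895), and miR-200c-3p (0.891). The nearest to miR-125a-3p were miR-712-5p (0.953), miR-450a-2-3p (0.916), and miR-99b-3p (0.902). Between the members, r for miR-125b-5p was 0.77 with miR-99a-5p and 0.72 with miR-100-5p, with which it shares clusters. With miR-99b-5p, of another cluster, it was also 0.77. For miR-99a-5p with miR-99b-5p, of different clusters, r was 0.90, and for miR-125a-5p with miR-99b-5p, of the same cluster, -0.18.

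**Figure D5:**
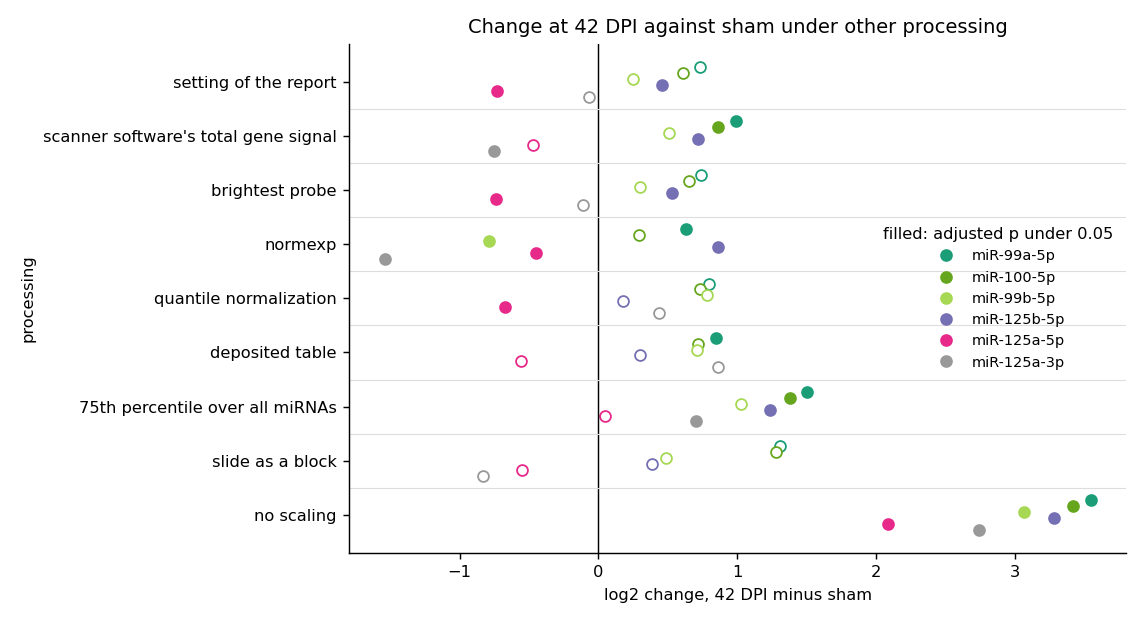
Log2 change at 42 DPI against sham (x axis) of the 6 members under the processing of the report and 8 others (rows), with filled points for an adjusted p under 0.05. miR-125a-5p lies lowest of the 5p members in all rows but normexp, where miR-99b-5p lies at -0.79, and its sign turns in the rows with the percentile over all miRNAs (0.05) and no scaling (2.09).

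Among the 5p arms, miR-125a-5p had the lowest change at 42 DPI under 8 of these 9 processing settings, and miR-99b-5p under normexp. The direction of each member against 0 was less stable, since no scaling made all 6 higher and called them all, and the shift of the median of all tested miRNAs against the report's processing was 1.99 there and 0.55 with the percentile over all miRNAs.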

How the data were processed

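The authors labeled exosomal RNA with cyanine 3, hybridized it to Agilent mouse miRNA arrays, and deposited 1 scanner file per array, in which Agilent Feature Extraction 10.7.1.1 gives each of 58594 spots a background-subtracted intensity, without normalization across arrays. Their processed table, also deposited, holds log2 values, 1 column per array, whose scaling and centering are not given in the sources used here. Control spots and outlier spots were left out, spots were averaged per probe, and probes were summed per miRNA. Signals were divided by the array's 75th percentile over 230 miRNAs, floored at -5.06, and put on the log2 scale. Each member has 30 spots on an array, and the number of arrays limits the precision. Detection needed more than 0.5 of a probe's spots well above background. A miRNA had to be detected on every array of some group, which left 486 to test with limma 3.58.1 in R 4.3.3 over the 12 arrays, two-sided, with Benjamini-Hochberg adjustment, and the fit was tested on simulated data. Python 3.11.15, NumPy 2.4.6, and pandas 2.3.3 did the rest.

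The members and the lists of let-7 partners, other arms, related seeds, and cell-type markers were chosen with earlier results of these data known. Named beside these were, per member, the 3 tested miRNAs with the highest Pearson's r over the 12 arrays. Arrays with the same replicate number deviated together in sham and 14 DPI (correlations of 0.83, 0.44, and 0.75 across miRNAs, from which alone this pairing comes). In every other comparison the correlations differed in sign between replicates, and they ran from -0.77 to 0.79. The 17 alternatives changed the signal, background correction, scaling, floor, filter, detection call, model, and values, or left out 1 array. Chosen after seeing the data were the fit on slide 2 alone and the replicate block in a fit of only 2 groups. The study's qRT-PCR and later experiments were not analysed here.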

Additional observations from a re-analysis of the deposited data

Results flagged for a closer look

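For 3 members the changes against sham at 42 and at 3 DPI were not the same, as tested by limma on the difference between these times, in which sham cancels. The difference was 0.84 for miR-99a-5p (adjusted p = 0.0417) and 0.80 for miR-100-5p (adjusted p = 0.0382), with 3 of 3 arrays of 42 DPI above those of 3 DPI. It was -0.75 for miR-125a-5p (adjusted p = 0.0172), with 3 of 3 arrays below. Over all tested miRNAs, 38.3% were called in this comparison, 28.6% had all arrays of 42 DPI above those of 3 DPI, and 37.7% had them below. Without replicate 1 or 3 of 42 DPI 0 members and 0 of all tested were called, and the difference of miR-125a-5p turned to 0.10 with the percentile over all miRNAs and to 1.28 with no scaling. On slide 2 alone, chosen after seeing the data, the adjusted p-values were 0.0849, 0.0689, and 0.0552, and 0 of all tested were called. miR-99a-5p and miR-100-5p differ by 1 base, so their signals may not be independent. No explanation was tested.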

How the results depend on the processing

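With 3 arrays per group, changes of the dim members miR-99b-5p and miR-125a-3p were limited by their signal over background on the sham arrays, and the comparison of sham with 14 or 42 DPI is bound to the slide. Besides the report's processing, 17 alternatives were run, and the causes of the differences were not tested. Of the log2 changes of members outside the leave-one-out fits, 510 kept direction and side of the threshold, 34 passed it newly, 29 no longer passed it, and 51 turned in direction. These counts include the fits chosen after seeing the data, on slide 2 alone and with the replicate block in only 2 groups.

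Members called at 42 DPI against sham were 2 in the report, 3 with the software's detection call, 0 with slide as a block or no filter, 1 with quantile normalization, the deposited table, 0.5 times or double the floor, or only miRNAs detected on all 12 arrays, 4 with the software's total signal, the percentile over all miRNAs, only the 2 groups compared, or the methods' t-test after Benjamini-Hochberg adjustment (also 4 at an unadjusted p under 0.05), 5 with normexp, and 6 with no scaling. At 14 DPI against sham they were 0 in the report, 1 with the percentile over all, 3 with normexp, and 6 with no scaling. Of all 486 tested, the calls at 42 DPI against sham were 166 in the report, 0 with slide as a block, 162 with quantile normalization, 249 in the deposited table, 216 and 87 with 0.5 times and double the floor, 177 with the software's total signal, 223 with the percentile over all, 262 with only the 2 groups, 212 with the methods' t-test, 433 with normexp, and 408 with no scaling, beside 18 of 1881 with no filter, 118 of 230 detected on all arrays, and 196 of 576 with the software's detection call. At 14 DPI they were 18 in the report, 21 with the percentile over all, 377 with normexp, and 319 with no scaling. From 14 to 42 DPI no scaling called 2 members and 166 of all tested. From 3 to 42 DPI the report called 3, against 0 with no filter or on slide 2 alone, 1 with double the floor, and 6 with normexp or no scaling, where all tested gave 186 in the report, 0 with no filter or on slide 2 alone, 63 with double the floor, 313 with normexp, and 303 with no scaling. Under the replicate block, members called from 3 to 42 DPI were 1, and in fits of only 2 groups 0, while at 42 DPI against sham such a fit called 1; the block changed no other count of members at the adjusted threshold by over 1.5 times, and over all miRNAs at 14 DPI against sham it called 4, against 18 without it. At an unadjusted p under 0.05 the block called 2 members in place of 4 at 42 DPI against sham, 1 in place of 2 from 3 to 14 DPI, and 0 in place of 1 from 14 to 42 DPI, and in a fit of only 2 groups 4 in place of 2 at 14 DPI against sham, 0 in place of 2 from 3 to 14 DPI, and 4 in place of 3 from 3 to 42 DPI. Fits that left out 1 array called 0 to 2 members at 14 DPI and 1 to 2 at 42 DPI against sham (2 only without replicate 3 of sham), 0 to 3 from 3 to 14 DPI, and 0 to 3 from 3 to 42 DPI, the highest at 14 DPI without its replicate 1, and the lowest from 3 to 42 DPI without replicate 1 or 3 of 42 DPI. Pair changes whose groups did not overlap were 5 of 18 in the report, 11 with normexp, 9 in the deposited table, and 5 to 8 leaving out 1 array, with 8 without replicate 3 of sham or replicate 1 of 3 DPI.

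Directions turned as follows, in log2 changes. At 3 DPI against sham, the software's total signal gave miR-99a-5p 0.04 and miR-99b-5p 0.14, no scaling gave miR-99a-5p 0.68, miR-99b-5p 0.79, and miR-100-5p 0.60, and slide as a block gave these 0.28, 0.15, and 0.26 and miR-125a-3p -0.21, which was -0.38 with normexp. miR-125a-5p was -0.01 with the brightest probe, -0.05 with the percentile over all, -0.07 with quantile normalization, -0.03 with the software's detection call, and -0.08 in the deposited table. At 14 DPI, miR-125a-3p was -0.16 with the software's total signal, -0.79 with normexp, and -0.21 with slide as a block, miR-99b-5p was -0.48 with normexp, and miR-125a-5p 1.32 with no scaling. At 42 DPI, miR-125a-5p was 0.05 with the percentile over all and 2.09 with no scaling, miR-99b-5p -0.79 with normexp, and miR-125a-3p 0.70 with the percentile over all, 0.44 with quantile normalization, 2.74 with no scaling, and 0.86 in the deposited table.

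From 3 to 14 DPI, miR-99b-5p was -0.16 with normexp, miR-125a-5p 0.51 with no scaling, miR-125b-5p -0.11 with quantile normalization and -0.01 in the deposited table, and miR-125a-3p -0.32 with the software's total signal and -0.42 with normexp. From 14 to 42 DPI, miR-99b-5p was 0.01 with the brightest probe, 0.45 with the percentile over all, 0.29 with quantile normalization, 1.06 with no scaling, and 0.26 in the deposited table, miR-125a-5p 0.17 with the percentile over all and 0.77 with no scaling, miR-125b-5p -0.04 with quantile normalization, and miR-125a-3p 0.47 with no scaling. From 3 to 42 DPI, miR-99b-5p was -0.46 with normexp, miR-125a-5p 0.10 with the percentile over all and 1.28 with no scaling, miR-125b-5p -0.14 with quantile normalization and -0.0049 in the deposited table, and miR-125a-3p 0.48 with the percentile over all, 0.19 with quantile normalization, 1.66 with no scaling, and 0.78 in the deposited table.

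Of the pairs, miR-125a-5p minus miR-125a-3p turned with the software's total signal at 3 DPI (0.01) and 42 DPI (0.29) and with normexp at the 3 times (0.51, 0.60, and 1.1). With normexp at 14 and 42 DPI, miR-99a-5p minus miR-125b-5p was -0.29 and -0.23, miR-100-5p minus miR-125b-5p -0.54 and -0.57, and miR-99b-5p minus miR-125a-5p -0.29 and -0.34. The brightest probe gave miR-100-5p minus miR-125b-5p -0.03 at 14 DPI.

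Leaving out 1 array, ranges that crossed 0 were, at 3 DPI against sham, -0.31 to 0.12 for miR-99a-5p, -0.13 to 0.14 for miR-99b-5p, -0.42 to 0.00083 for miR-100-5p, -0.11 to 0.14 for miR-125a-5p, and -0.15 to 0.54 for miR-125a-3p, and at 42 DPI -0.25 to 0.11 for miR-125a-3p. From 14 to 42 DPI they were -0.04 to 0.41 for miR-99a-5p and miR-100-5p, -0.25 to 0.13 for miR-99b-5p, and -0.12 to 0.19 for miR-125b-5p, and from 3 to 42 DPI -0.62 to 0.08 for miR-125a-3p. Pairs gave -0.07 to 0.07 for miR-100-5p minus miR-125b-5p at 14 DPI and -0.59 to 0.30 for miR-125a-5p minus miR-125a-3p at 3 DPI.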
